A study of Homo sapiens with 12 samples.

Results

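The 10 genes described here carry 5-fluorouracil and natural pyrimidines into cells, activate them, break them down or supply the nucleotides that the drug's active forms compete with. They were taken as a named list (TYMS, DPYD, TYMP, UMPS, UPP1, TK1, DUT, RRM1, RRM2 and SLC29A1), and all 10 were found among the 17818 genes of the deposited table. RNA came from the human colorectal cancer lines SW480 and HCT116, carrying either an overexpression construct for USP51 (labelled USP51-OE) or the control vector (labelled NC, Vector). USP51 is a ubiquitin-specific protease. The groups were SW480 with USP51, SW480 control, HCT116 with USP51 and HCT116 control, with 3 libraries each. All were grown in serum-containing DMEM and are labelled untreated, so no fluoropyrimidine was given. Neither the construct's promoter nor the choice of clones or pools is given in the sources used here.

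Only the authors' mean of each group could be tied to the labels, because single-library columns carry codes that match no label. There is therefore no replicate spread, SD or p-value for any value, and each comparison sets 1 group mean against another. The mean columns end in C or E, which were read as control and USP51 overexpression. Every direction between those groups rests on that reading. USP51 itself, with levels given below, was higher in the groups read as USP51 overexpression in both lines. Values in TPM (abundance scaled for transcript length and depth) were summed over the transcripts of a gene. Ratios of counts per total count are followed by a 95% exact interval, computed as if each mean were a single library's count. It holds counting error alone, and is wider than the counting error of a mean of 3 libraries. An interval that includes 1 might therefore leave it out if the libraries were pooled. An interval that leaves out 1 says nothing about the spread between replicates. In bulk RNA, fewer expressing cells and less RNA per cell cannot be told apart.

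5-Fluorouracil is a uracil analog that enters cells partly through nucleoside and base transporters and is turned into nucleotides by the enzymes of pyrimidine salvage. Its deoxynucleotide form blocks thymidylate synthase, the enzyme that makes the thymine nucleotide for DNA, and its other nucleotides are built into RNA and DNA. Dihydropyrimidine dehydrogenase breaks the drug down, chiefly in the liver. Several of these enzymes are made mainly in dividing cells, as they feed DNA synthesis.

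Mean total counts lay between 15506686 and 15920306 per group. USP51 itself stood at 25.7 TPM in SW480 with USP51 and 0.513 TPM in SW480 controls, and at 40.8 and 0 TPM in HCT116. Each group had 6 of 8 colon epithelial markers at 1 TPM or more, with summed levels of 4917 to 10193 TPM. They were not the same 6 in both lines. VIL1 stood at 12.5 and 7.55 TPM in SW480 with USP51 and controls, but at 0.02 and 0.03 TPM in HCT116. CDH17, a defining marker on that list, was at 0 in both control groups and at 0.01 TPM in both USP51 groups. Fibroblast markers summed to 7.97 to 20.9 TPM, and COL1A1 and ACTA2 alone of them reached 1 TPM. COL1A1 stood at 15.1 and 9.95 TPM in HCT116 with USP51 and controls. Leukocyte markers summed to 6.38 to 8.15 TPM. Of these, CD68 stood at 3.98 to 6.96 TPM over the groups, and CD14 at 2.25 and 1.18 TPM in SW480 with USP51 and controls. The other leukocyte markers were below 1 TPM, and PTPRC, the common leukocyte antigen, was at 0 in 3 of the 4 groups.

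The upstream windows of the genes whose levels or transcripts differed most, and of S phase genes that are described together, are printed here for reference. Each is the 250 bases before a start listed by RefSeq (GRCh38.p14), the start nearest to that of the gene's most abundant annotated transcript in GENCODE. For DUT, which has a separate start for each protein form, both are shown. Capitals mark an E2F motif (TTTCCCGC, TTTGGCGC, TTTCGCGC or TTTGCCGC), a CCAAT box (CCAAT) or a GC box (GGGCGG), on either strand.
DPYD (chr1:97921035-97921284, minus strand): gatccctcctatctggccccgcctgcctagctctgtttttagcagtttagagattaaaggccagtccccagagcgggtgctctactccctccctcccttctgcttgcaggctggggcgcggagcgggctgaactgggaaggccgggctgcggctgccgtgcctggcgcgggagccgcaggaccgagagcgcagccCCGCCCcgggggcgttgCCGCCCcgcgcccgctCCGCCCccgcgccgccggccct
TYMP (chr22:50530086-50530335, minus strand): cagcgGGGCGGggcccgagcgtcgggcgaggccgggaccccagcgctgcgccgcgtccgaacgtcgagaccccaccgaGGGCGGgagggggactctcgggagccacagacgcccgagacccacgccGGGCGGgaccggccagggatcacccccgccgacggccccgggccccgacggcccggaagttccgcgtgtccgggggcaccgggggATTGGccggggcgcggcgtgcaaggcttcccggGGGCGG
UPP1 (chr7:48089004-48089253, plus strand): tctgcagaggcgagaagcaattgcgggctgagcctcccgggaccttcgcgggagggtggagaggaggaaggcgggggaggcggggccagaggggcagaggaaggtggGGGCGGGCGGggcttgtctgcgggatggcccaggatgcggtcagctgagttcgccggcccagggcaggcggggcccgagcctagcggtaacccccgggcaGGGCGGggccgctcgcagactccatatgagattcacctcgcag
TYMS (chr18:657403-657652, plus strand): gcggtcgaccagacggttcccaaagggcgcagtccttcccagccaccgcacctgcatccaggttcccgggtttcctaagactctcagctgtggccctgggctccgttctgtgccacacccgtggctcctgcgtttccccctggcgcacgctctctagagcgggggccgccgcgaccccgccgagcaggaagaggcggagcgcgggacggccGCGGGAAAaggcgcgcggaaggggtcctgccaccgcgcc
TK1 (chr17:78187205-78187454, minus strand): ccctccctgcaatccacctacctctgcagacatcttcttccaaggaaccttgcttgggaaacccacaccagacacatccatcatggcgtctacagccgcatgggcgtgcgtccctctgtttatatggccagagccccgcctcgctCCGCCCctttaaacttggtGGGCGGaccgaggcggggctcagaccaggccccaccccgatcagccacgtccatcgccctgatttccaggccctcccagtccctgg
RRM2 (chr2:10122489-10122738, plus strand): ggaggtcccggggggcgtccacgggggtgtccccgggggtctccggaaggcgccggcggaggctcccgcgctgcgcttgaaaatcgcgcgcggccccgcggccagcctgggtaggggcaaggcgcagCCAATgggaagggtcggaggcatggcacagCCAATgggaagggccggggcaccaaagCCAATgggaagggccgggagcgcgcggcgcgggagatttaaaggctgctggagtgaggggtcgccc
DUT, nuclear form (chr15:48331947-48332196, plus strand): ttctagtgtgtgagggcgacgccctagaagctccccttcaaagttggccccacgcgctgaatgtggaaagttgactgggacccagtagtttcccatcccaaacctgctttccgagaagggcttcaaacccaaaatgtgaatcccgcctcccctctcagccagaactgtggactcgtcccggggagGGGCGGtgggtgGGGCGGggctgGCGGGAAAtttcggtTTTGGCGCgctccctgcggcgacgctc
DUT, mitochondrial form (chr15:48331174-48331423, plus strand): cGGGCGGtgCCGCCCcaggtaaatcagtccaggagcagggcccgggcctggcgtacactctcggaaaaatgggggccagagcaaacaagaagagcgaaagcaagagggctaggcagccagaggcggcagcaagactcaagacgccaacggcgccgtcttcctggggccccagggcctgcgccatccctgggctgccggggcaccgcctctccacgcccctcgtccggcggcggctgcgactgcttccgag

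The E2F letters were found in the TYMS window, with their first base 39 bases before the start, and in 2 places in the window of the nuclear DUT form. They were in none of the other 18 of the 20 windows of the 10 genes. Among 35097 such windows over all genes, 2.79% held them. The RRM2 window held 3 CCAAT boxes, and 32% of all windows held at least 1. A second TK1 window at a start further downstream held 2 CCAAT boxes that the printed window lacks. GC boxes stood in 15 of the 20 windows, against 42.6% of all windows, and 8 of the 10 genes had at least 1, all but TYMS and UMPS. Several windows of the same gene overlap, so some boxes are counted more than once and the 20 are not independent. G and C made up 53.2% to 82% of these windows, where the median of all windows was 58%. Of the printed windows, that of TYMP held 4, those of DPYD and UPP1 3 each, and those of TYMS and RRM2 none. No 2 kinds of motif overlapped in the printed windows, but 2 of the GC boxes of UPP1 overlap each other. The TYMP window also held 40 CpG pairs, at percentile 98.3 of all windows, beside 25 in that of DPYD and 21 in that of UPP1. A match of letters describes the sequence and does not show that a factor binds there.

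The 10 genes ranged in level from 0 to 425 TPM. In SW480 RRM2, the small subunit of ribonucleotide reductase that carries the radical, was at 267 TPM with USP51 and 332 TPM in controls. It stood at 190.4 and 201 TPM in HCT116. In HCT116 TK1, the cytosolic thymidine kinase that salvages thymidine, was the most abundant, at 425 TPM with USP51 and 383 TPM in controls, and it stood at 163 and 192 TPM in SW480. TYMS, the thymidylate synthase gene, stood at 276 TPM in SW480 with USP51 and 307 TPM in SW480 controls, and 315 TPM in HCT116 with USP51 and 348 TPM in HCT116 controls. By TPM it ranked first in SW480 with USP51, behind RRM2 in SW480 controls and behind TK1 in both HCT116 groups. It lay above 97.1% of all genes of the table in SW480 with USP51, the lowest of its 4 ranks. DPYD stood at the other end, below 1 TPM everywhere, and did not reach the minimum of 1 TPM in at least 1 group compared, so it is in none of the counts and medians over 9 genes.

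**Figure D1:**
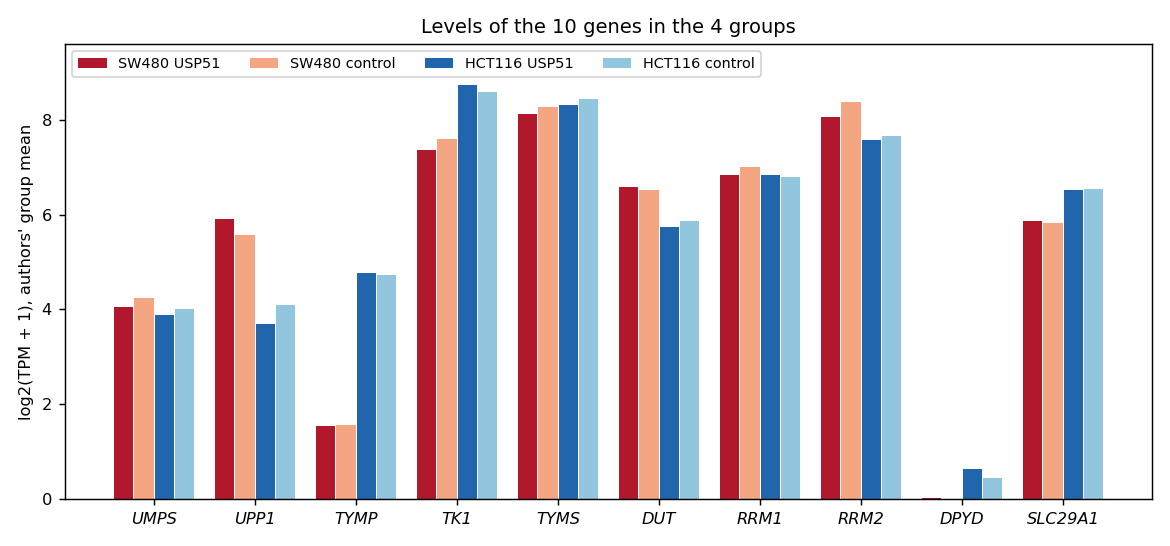
Authors' group means of the 10 genes as log2(TPM + 1), with 4 bars per gene for SW480 USP51, SW480 control, HCT116 USP51 and HCT116 control. TYMP and TK1 are higher in both HCT116 groups and UPP1 in both SW480 groups, while DPYD is near 0 in SW480.

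The control cells of the lines were compared first, since they show what each line starts from. The salvage enzymes that open alternative routes into nucleotides lay on opposite sides. SW480 controls held more UPP1, the uridine phosphorylase that can join uracil or 5-fluorouracil to ribose, and HCT116 controls held more TYMP, the thymidine phosphorylase that can join them to deoxyribose, and more TK1. With a 2-fold rule on log2(TPM + 1), UPP1 was higher in SW480 and TYMP lower, 1 of 9 measured genes each way, against 13.4% and 14.7% of all 13033 genes measured. In cells with USP51, UPP1 was again higher and both TYMP and TK1 lower in SW480, against 11.4% and 17.2% of 13130 genes. In controls the median log2 ratio of the 9 genes was 0.23, and that of all genes -0.08. With no minimum level, so that DPYD entered, the median of the 10 was 0.02.

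UPP1 (NCBI gene 7378, chromosome 7, 48088704 to 48108736, GRCh38) stood at 46.1 and 15.9 TPM in SW480 and HCT116 controls, a count ratio of 3.27 (2.78 to 3.88). In cells with USP51 it stood at 59.1 and 11.9 TPM in SW480 and HCT116, a ratio of 5.91 (4.91 to 7.12). TYMP (NCBI gene 1890, chromosome 22, 50525752 to 50530085) stood at 1.94 and 25.4 TPM in SW480 and HCT116 controls, a ratio of 0.0761 (0.0491 to 0.112). With USP51 the TYMP levels were 1.9 and 26.1 TPM, a ratio of 0.0765 (0.05 to 0.112). The lines thus kept their order for both phosphorylases with and without USP51. Within a line, TYMP was at 0.0322 and 0.042 of the UPP1 level in TPM in SW480 with USP51 and controls, and at 2.19 and 1.59 of it in HCT116. TYMP overlaps SCO2, a gene for a mitochondrial copper chaperone, over 691 bases, and SCO2 stood at 26.6 and 32.9 TPM in SW480 and HCT116 controls.

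TK1 (NCBI gene 7083, chromosome 17, 78174079 to 78187204) stood just short of 2-fold lower in SW480 controls, at 192 and 383 TPM in SW480 and HCT116 (count ratio 0.503, 0.479 to 0.529). In cells with USP51 the log2 ratio between the lines was -1.38, at 163 and 425 TPM. TYMS (NCBI gene 7298, chromosome 18, 657653 to 673578) differed little between the lines, with a count ratio of 0.883 (0.847 to 0.92) in controls. On the opposite strand TYMS shares 10593 bases with ENOSF1 and 639 with the antisense gene TYMSOS, and the sources used here do not say whether counting used strand. ENOSF1 stood at 22.8 and 32.8 TPM in SW480 and HCT116 controls and TYMSOS at 10.4 and 2.69 TPM, all far below TYMS. Per length, TYMS exceeded TK1 by 1.7-fold in SW480 with USP51 and 1.6-fold in SW480 controls, whereas in HCT116 it was at 0.742 and 0.909 of the TK1 level.

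RRM2, RRM1 and DUT, which supply deoxynucleotides or keep uracil out of DNA, were higher in SW480 controls than in HCT116 controls. RRM2 (NCBI gene 6241, chromosome 2, 10122568 to 10211010) was at 332 and 201 TPM in SW480 and HCT116 controls, a count ratio of 1.67 (1.61 to 1.72). DUT (NCBI gene 1854, chromosome 15, 48331095 to 48343373), the dUTPase that destroys dUTP and its fluorinated analog, was at 91.2 and 57.5 TPM, a ratio of 1.66 (1.53 to 1.8). RRM1 (NCBI gene 6240, chromosome 11, 4094685 to 4138932), the large catalytic subunit of ribonucleotide reductase, was at 128 and 109 TPM, a ratio of 1.18 (1.13 to 1.24). In cells with USP51, RRM1 was at 113 and 113 TPM in SW480 and HCT116 (ratio 1.06, 1.01 to 1.12), RRM2 at 267 and 190.4 TPM (ratio 1.48, 1.43 to 1.53) and DUT at 95.5 and 52.2 TPM (ratio 1.99, 1.83 to 2.16), so that RRM1 was nearly level in TPM there. The small subunit exceeded the large by 2.59-fold in TPM in SW480 controls and 1.84-fold in HCT116 controls. RRM2B, the other small subunit and a p53 target, ran the other way, at 12.1 and 25.5 TPM (ratio 0.478, 0.433 to 0.529), so that RRM2 exceeded it by 27.6-fold in SW480 controls and 7.89-fold in HCT116 controls.

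SLC29A1 and DPYD, which serve uptake and breakdown, were lower in SW480. SLC29A1 (NCBI gene 2030, chromosome 6, 44219615 to 44234142), which encodes the equilibrative nucleoside transporter ENT1, was at 55.7 and 91.6 TPM in SW480 and HCT116 controls, a count ratio of 0.612 (0.568 to 0.661). Its relative SLC29A2 was at 37.7 and 41.9 TPM. DPYD (NCBI gene 1806, chromosome 1, 97077743 to 97921059), the dihydropyrimidine dehydrogenase gene, had 0.333 counts on average in SW480 with USP51 and 0 in SW480 controls, and 21.7 in HCT116 with USP51 and 16 in HCT116 controls. The interval of the DPYD count ratio of SW480 over HCT116 controls had an upper limit of 0.263. With a floor of 3 counts for the SW480 control mean and the HCT116 mean taken as exact, DPYD was 5.27-fold lower in SW480. That size is not a bound, since the upper limit of the interval allows a smaller difference. The later enzymes of the breakdown route were also near 0, with DPYS at 0, 0.01, 0 and 0 TPM and UPB1 at 0.02, 0.01, 0.223 and 0.07 TPM in SW480 with USP51, SW480 controls, HCT116 with USP51 and HCT116 controls. UMPS (NCBI gene 7372, chromosome 3, 124730452 to 124749273), whose protein adds phosphoribose to orotate or 5-fluorouracil in the de novo route, was closer between the lines, at 17.9 and 15.1 TPM in SW480 and HCT116 controls (ratio 1.2, 1.1 to 1.3).

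**Figure D2:**
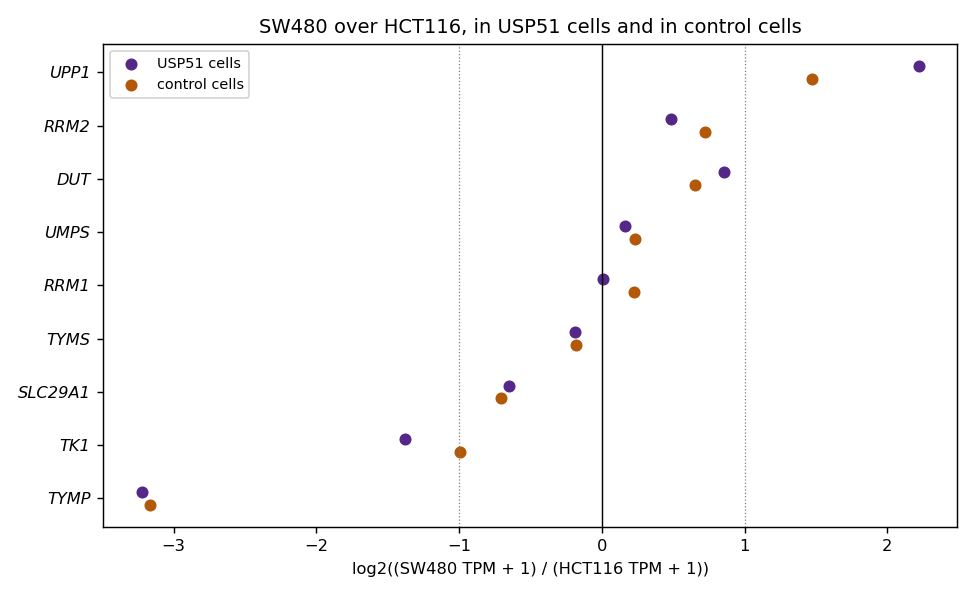
SW480 over HCT116 for 9 genes on the log2(TPM + 1) scale, in USP51 cells and in control cells, with dotted lines at 2-fold. UPP1 is beyond 2-fold higher and TYMP beyond 2-fold lower in SW480 in both, and TK1 crosses the 2-fold line in USP51 cells.

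The deposited table lists transcripts, so the makeup of each gene could be described. The split of reads between transcripts of a gene is an estimate of the authors' counting and less certain than the gene total. Of 36 transcript rows of the 10 genes at 1 TPM or more in either control group, 4 were at least 2-fold higher and 5 at least 2-fold lower in SW480 controls, against 13.9% and 14.5% of all transcripts. TYMS, TK1, RRM1, RRM2 and UMPS each had a single transcript above 10% of the gene's TPM.

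DUT showed a difference in makeup between the lines. NM_001948.4, which encodes the nuclear form, stood at 70.1 and 49.2 TPM in SW480 and HCT116 controls, a count ratio of 1.43 (1.31 to 1.57). NM_001025248.2, which encodes the mitochondrial form from an upstream start, stood at 15.3 and 2.44 TPM, a ratio of 6.31 (4.64 to 8.74). The mitochondrial transcript made up 15.1% of DUT in SW480 with USP51 and 16.8% in SW480 controls, and 4.95% in HCT116 with USP51 and 4.25% in HCT116 controls. The intervals of the nuclear and mitochondrial ratios did not overlap, but they leave out the error of splitting reads between transcripts. The mitochondrial share moved little with USP51. A predicted transcript, XM_017021988.1, ran the other way, at 1.47 and 4.5 TPM in SW480 and HCT116 controls (ratio 0.331, 0.184 to 0.555). It made up 1.62% and 7.82% of DUT in those controls. The windows printed above hold the E2F letters for the nuclear start and not for the mitochondrial start. RefSeq names 8 DUT pseudogenes, none of which has rows in the table, and likewise 3 RRM2 and 2 TYMS pseudogenes, so how their reads were counted is not known here.

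UPP1 also differed in makeup. NM_003364.4 made up 51.9% of UPP1 in SW480 with USP51 and 47.3% in SW480 controls, and 13.2% in HCT116 with USP51 and 12.5% in HCT116 controls. Its level was 21.8 and 2 TPM in SW480 and HCT116 controls, a count ratio of 11 (7.56 to 16.8). The predicted transcript XM_011515515.2, at 10.9 and 6.72 TPM, and NM_001287429.2, at 6.73 and 5.5 TPM, differed far less, with ratios of 1.64 (1.23 to 2.23) and 1.23 (0.851 to 1.76). The higher UPP1 level of SW480 was therefore carried mainly by NM_003364.4 in these estimates.

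**Figure D3:**
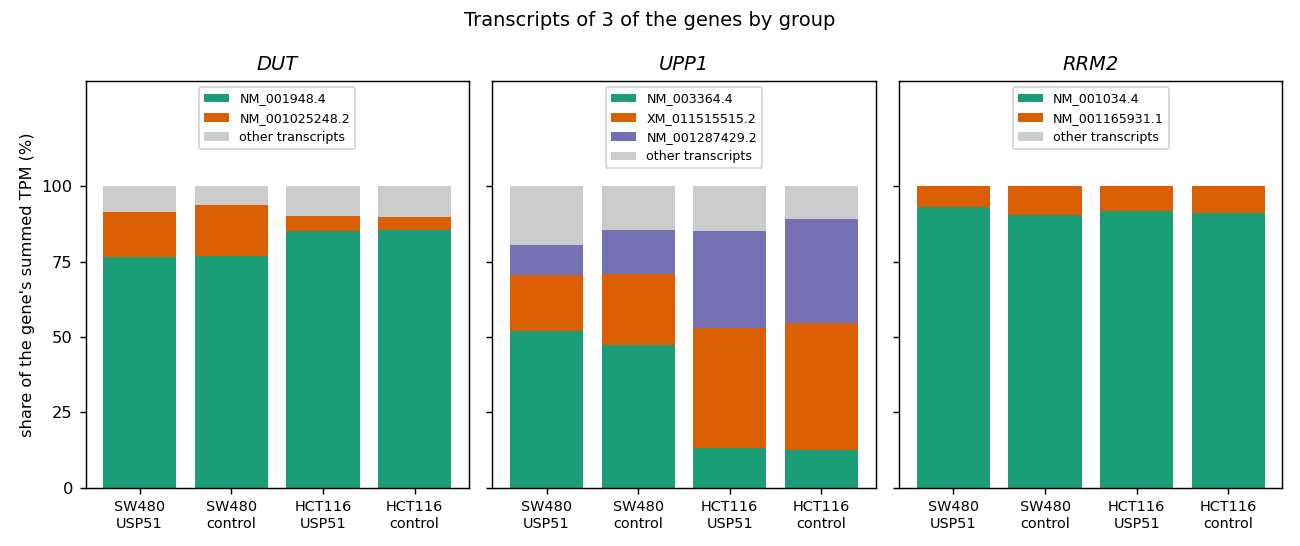
Share of each gene's summed TPM held by its main transcripts in SW480 USP51, SW480 control, HCT116 USP51 and HCT116 control, with other transcripts in grey. The mitochondrial DUT transcript (NM_001025248.2) and UPP1 NM_003364.4 hold larger shares in SW480, and the longer RRM2 transcript (NM_001165931.1) holds under 10% everywhere.

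In SW480 with USP51, TYMS, UMPS, TK1, RRM1 and RRM2 lay slightly below control and UPP1 above it. No member passed 1.5-fold on log2(TPM + 1), beside 0.534% of 12175 genes that were at least 1.5-fold higher and 0.879% that were lower. Of the 9 measured members 6 lay below control in TPM, against 61.1% of all genes, and their median log2 ratio was -0.15, against -0.04 over all genes. On the FPKM and CPM scales 5 of 9 lay below control, and the TPM share does not apply to that count. The median of the 9 was -0.111 to -0.0953 on those scales, against 0.00049 to 0.016 over all genes. The counting interval lay below 1 for 5 (TYMS, UMPS, TK1, RRM1 and RRM2) and above 1 for 2 (UPP1 and, only just, DUT). Over all genes those shares were 14.2% and 13.6%, but intervals narrow as counts grow and most members are abundant.

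RRM2 lay lowest of the 9 on log2(TPM + 1), at 267 and 332 TPM in USP51 cells and controls (log2 ratio -0.32, count ratio 0.825, 0.802 to 0.849). Its longer transcript, NM_001165931.1, which starts upstream and encodes a protein extended at its N terminus, was at 18.5 and 31.5 TPM, a count ratio of 0.605 (0.547 to 0.668). Of the 30 measured transcripts of the 10 genes it was the 1 that was at least 1.5-fold lower, where 6.5% of all transcripts were. At least 1.5-fold higher were 3 (2 minor transcripts of UPP1 and 1 of DUT), where 4.96% of all transcripts were. The main transcript NM_001034.4 was at 248 and 301 TPM, a ratio of 0.85 (0.825 to 0.875). TK1 was at 163 and 192 TPM in USP51 cells and controls (ratio 0.876, 0.825 to 0.93) and RRM1 at 113 and 128 TPM (ratio 0.912, 0.871 to 0.954). TYMS, at 276 and 307 TPM, had a ratio of 0.925 (0.886 to 0.966), and UMPS, at 15.5 and 17.9 TPM, a ratio of 0.892 (0.821 to 0.969).

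UPP1 was the member furthest above control in SW480, at 59.1 and 46.1 TPM in USP51 cells and controls (log2 ratio 0.35, count ratio 1.33, 1.19 to 1.48). Most of that lay in NM_003364.4, at 30.7 and 21.8 TPM (ratio 1.45, 1.25 to 1.67), whereas NM_001287429.2 was at 5.87 and 6.73 TPM (ratio 0.902, 0.629 to 1.28). DUT, at 95.5 and 91.2 TPM, and SLC29A1, at 57.6 and 55.7 TPM, were close to control, with ratios of 1.07 (1 to 1.15) and 1.06 (0.978 to 1.15). TYMP rested on 28 and 27.2 mean counts in USP51 cells and controls. Its interval of 0.578 to 1.79, taken as for a single library, is too wide to give a direction. Genes of S phase and cell division lay below control, as did TYMS, UMPS, TK1, RRM1 and RRM2. All 20 of a list of such genes were below control in SW480 in TPM, where 61.1% of all genes were. It was 18 with curated transcripts alone and 16 or 17 on the FPKM and CPM scales. The median TPM log2 ratio was -0.15. Among them TOP2A stood at 160.1 and 215 TPM and MKI67 at 77.8 and 103 TPM in USP51 cells and controls. The part of cell division in the member values was not tested.

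In HCT116 the members again stayed within 1.5-fold of control, beside 1.96% of 12393 genes at least 1.5-fold higher and 0.145% lower. Here UPP1 was lower with USP51 and TK1 slightly higher. Of the 9 measured members 6 lay below control, where 39.2% of all genes did, with a TPM median log2 ratio of -0.08, against 0.04 over all genes. TYMP and RRM1, just above control in TPM, were just below it on the CPM scale with TMM or RLE factors. The interval lay below 1 for 5 (TYMS, UMPS, UPP1, DUT and RRM2) and above 1 for TK1 alone, with shares over all genes of 11.7% and 17.1%.

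UPP1 in HCT116 stood at 11.9 and 15.9 TPM in USP51 cells and controls (log2 ratio -0.39, count ratio 0.735, 0.588 to 0.925), on 136 and 188 counts. Its 3 main transcripts were all below control, NM_003364.4 at 1.57 and 2 TPM, XM_011515515.2 at 4.75 and 6.72 TPM and NM_001287429.2 at 3.84 and 5.5 TPM. Taken as for a single library, the interval of each included 1, with upper limits of 1.395, 1.007 and 1.047 in that order. TK1 stood at 425 and 383 TPM (ratio 1.09, 1.05 to 1.13). TYMS, at 315 and 348 TPM, had a ratio of 0.887 (0.851 to 0.924), close to its ratio in SW480. UMPS was at 13.7 and 15.1 TPM (ratio 0.893, 0.814 to 0.978) and DUT at 52.2 and 57.5 TPM (ratio 0.893, 0.812 to 0.981). Of the reductase subunits, RRM2 was at 190.4 and 201 TPM (ratio 0.928, 0.895 to 0.962) and RRM1 was at 113 and 109 TPM (ratio 1.01, 0.964 to 1.06). TYMP, at 26.1 and 25.4 TPM, and SLC29A1, at 91.1 and 91.6 TPM, had ratios of 1.005 (0.867 to 1.17) and 0.976 (0.913 to 1.04). DPYD, on 21.7 and 16 counts, had a ratio of 1.38 (0.704 to 2.86), too wide to give a direction. None of 31 measured transcripts of the 10 genes was at least 1.5-fold higher, and 1, a minor predicted transcript of SLC29A1, was at least 1.5-fold lower, where 7.14% and 4.65% of all transcripts were. Of the 20 S phase and division genes 18 lay below control in HCT116 in TPM, where 39.2% of all genes did. It was 19 on the FPKM scale and with scaling factors. The TPM median was -0.11. Among them PCNA stood at 520.5 and 603 TPM and CDT1 at 87 and 103 TPM, while TOP2A stood at 85 and 76.5 TPM.

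**Figure D4:**
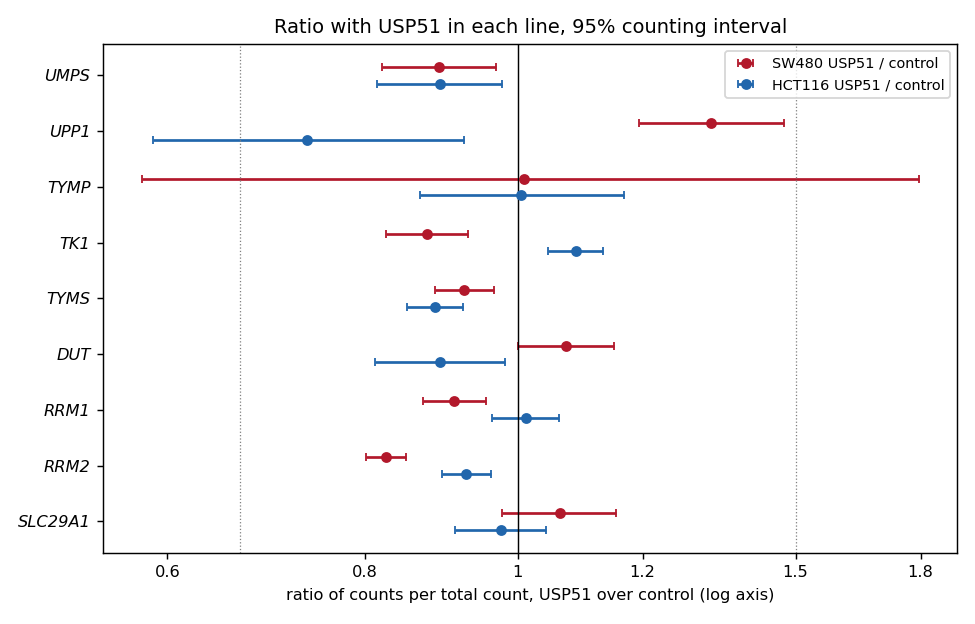
Ratio of counts per total count, USP51 over control, for 9 genes in SW480 and HCT116 (log axis), with bars for the 95% exact counting interval and dotted lines at 1.5-fold. The intervals of UPP1, TK1 and DUT lie on opposite sides of 1 in the lines, and those of TYMS, UMPS and RRM2 lie below 1 in both.

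The response was compared between the lines as the HCT116 log2 ratio minus the SW480 log2 ratio, with no test. UPP1 had the largest difference in size, at -0.74, and was the single member past 1.5-fold, where 0.459% of 11332 genes were at least that much lower and 3.95% higher. Its counting intervals lay on opposite sides of 1 in the lines. The same held for TK1, with a difference of 0.38, and for DUT, with a difference of -0.20, but with ratios closer to 1 and, for DUT in SW480, an interval that only just left out 1. RRM2 had a difference of 0.24 and RRM1 of 0.22 in TPM. Over the alternatives in processing described at the end, RRM2 ranged from 0.13 to 0.24 and RRM1 from 0.11 to 0.22. TK1 ranged there from 0.27 to 0.39 and DUT from -0.30 to -0.17. TYMS had log2 ratios of -0.14 in HCT116 and -0.15 in SW480 in TPM, and a difference of -0.10 on the CPM scale with TMM factors and -0.10 with RLE factors. Over all genes the median difference was 0.08 in TPM and between -0.018 and 0.018 on the FPKM and CPM scales.

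The wider pathway was read from 8 lists, with 54 genes beside the members. In SW480 none of the 45 of these that were measured differed by 1.5-fold, beside 0.534% of all genes higher and 0.879% lower. In HCT116 1 of 45 did, CDA, the cytidine deaminase that takes part in the activation of the prodrug capecitabine, beside 1.96% of all genes higher and 0.145% lower, so the count is near that share. CDA stood at 77.7 and 50.9 TPM in HCT116 with USP51 and controls (log2 ratio 0.60, count ratio 1.5, 1.28 to 1.75) and at 59.3 and 59.5 TPM in SW480. On the FPKM and CPM scales and with a pseudocount of 5 the log2 ratio of CDA in HCT116 was 0.53 to 0.57, under the 1.5-fold line. CES2, a carboxylesterase of the first step of that route, stood at 14.7 and 15.9 TPM in HCT116 and 14.8 and 15.2 TPM in SW480.

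Several lists include members. UMPS is in de novo synthesis, UPP1, TYMP and TK1 in salvage, and TYMS in the thymidylate cycle. RRM1, RRM2 and DUT are in deoxynucleotide supply, and SLC29A1 in transport. The list counts are thus not separate from the member counts. Counts of genes below control in the lists stand beside 61.1% of all genes in SW480 and 39.2% in HCT116 in TPM. Those shares do not apply to counts on the FPKM and CPM scales, for which no share over all genes is given. On those scales the median log2 ratio over all genes was 0.00049 to 0.016 in SW480 and -0.0063 to 0.017 in HCT116. In TPM it was -0.039 and 0.038. Of the 8 genes of de novo pyrimidine and PRPP synthesis, 6 lay below control in HCT116 (7 with TMM or RLE factors) and 4 in SW480 (3 on the CPM scale). CAD, the enzyme of the first steps, was at 52 and 60.9 TPM in HCT116 with USP51 and controls (ratio 0.841, 0.805 to 0.879) and at 56.1 and 60.6 TPM in SW480 (ratio 0.952, 0.913 to 0.993). PRPS1, which makes the phosphoribose donor PRPP that UMPS uses, was at 54.2 and 40.6 TPM in HCT116 (ratio 1.31, 1.19 to 1.44) and 91.6 and 89.8 TPM in SW480 (ratio 1.05, 0.983 to 1.12). Among salvage genes, 7 of 14 lay above control in SW480 and 6 of 14 in HCT116. On the FPKM and CPM scales 10 of 14 lay above control in SW480 and 3 to 5 in HCT116. The uridine kinase genes UCK2 and UCK1, whose proteins act after UPP1, stood at 27.9 and 26.3 TPM and 36.5 and 37 TPM in SW480 with USP51 and controls. NME1, which encodes a nucleoside diphosphate kinase, stood at 961 and 834 TPM in SW480 and 1109 and 1134 TPM in HCT116. This value is uncertain, since the neighbouring paralog NME2 is very similar.

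Of 11 genes of the thymidylate cycle and folate metabolism, 7 lay below control in each line in TPM, and 6 in SW480 and 8 or 9 in HCT116 on the FPKM and CPM scales. GGH, which trims folate polyglutamates, was at 266 and 218 TPM in SW480 with USP51 and controls (ratio 1.26, 1.19 to 1.33) and 70 and 64.7 TPM in HCT116 (ratio 1.06, 0.953 to 1.18). SLC19A1, the gene of the reduced folate carrier, stood at 27.4 and 24.3 TPM in SW480 (ratio 1.17, 1.06 to 1.3) and 27.3 and 31.4 TPM in HCT116 (ratio 0.842, 0.768 to 0.925). Among the 7 genes of deoxynucleotide supply and uracil exclusion, 5 lay below control in SW480 (4 on the FPKM and CPM scales) and 6 in HCT116 (7 with TMM or RLE factors), and RRM2B was at 9.7 and 12.1 TPM in SW480 and 24.2 and 25.5 TPM in HCT116. All 4 DNA glycosylase genes that remove uracil or its analogs lay below control in SW480 in TPM but 2 of 4 on the FPKM and CPM scales, and in HCT116 2 of 4 did in TPM and 3 on those scales. MBD4 was at 22.3 and 29.6 TPM in SW480 with USP51 and controls (ratio 0.793, 0.709 to 0.886) and UNG at 78.6 and 89.9 TPM (ratio 0.902, 0.841 to 0.968).

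Of 9 transport genes 4 were measured. ABCC5, an exporter of nucleoside monophosphates, was at 14.9 and 19.8 TPM in SW480 with USP51 and controls (ratio 0.78, 0.713 to 0.855) and 11.9 and 11.5 TPM in HCT116 (ratio 1.02, 0.91 to 1.14). The concentrative nucleoside transporter genes SLC28A1, SLC28A2 and SLC28A3 were below 1 TPM in all 4 groups. Among 5 measured genes of pyrimidine breakdown and of nucleotidases, 3 lay below control in each line in TPM, and in SW480 2 did on the FPKM and CPM scales, with NT5E, a surface nucleotidase, at 7.12 and 9.48 TPM in SW480 and 16.3 and 19 TPM in HCT116. Between control cells, GGH was 3.4-fold, PRPS1 2.23-fold and SAMHD1, a deoxynucleotide hydrolase, 2.32-fold higher in SW480 than in HCT116 by count ratio, and the mitochondrial folate enzyme gene MTHFD2 was at 0.479 of its HCT116 level.

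**Figure D5:**
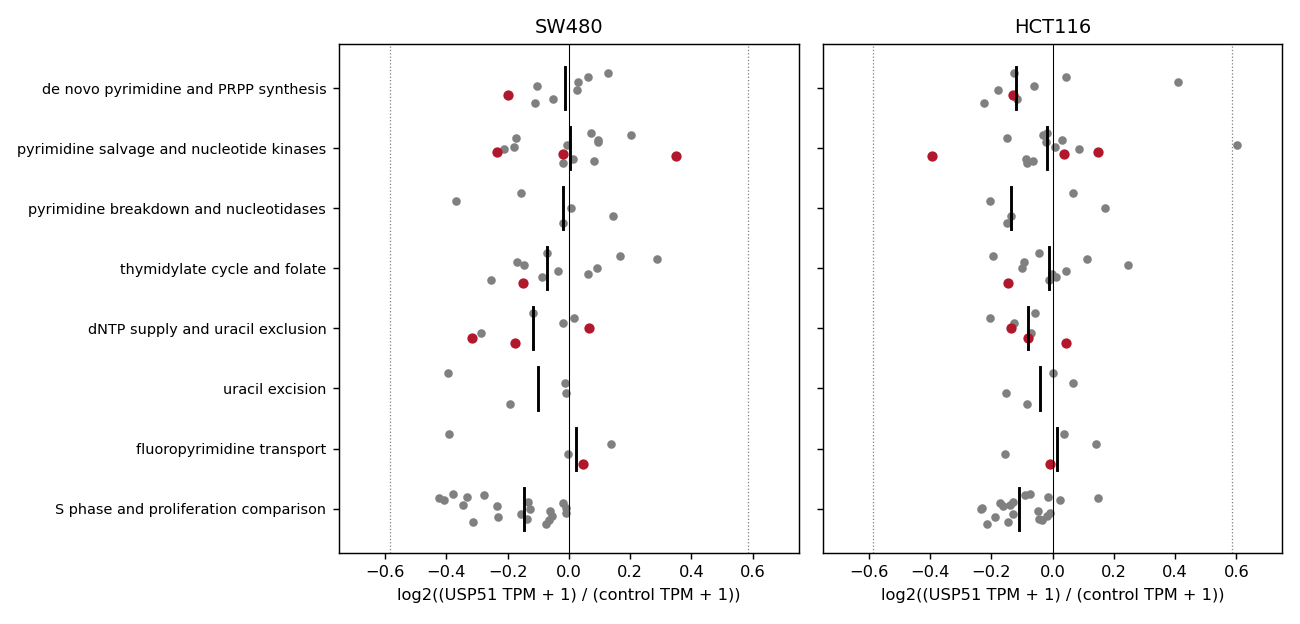
log2((USP51 TPM + 1) / (control TPM + 1)) of the genes of 7 pathway lists and of S phase genes in SW480 and HCT116, with members in red, other genes in grey, list medians as black bars and dotted lines at 1.5-fold. CDA is the single point past a dotted line, in HCT116. All 20 S phase genes lie below 0 in SW480 in TPM (16 or 17 on the FPKM and CPM scales, 18 with curated transcripts alone).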

How the data were processed

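Messenger RNA of 12 libraries in 4 groups of 3 was sequenced on a BGISEQ instrument, per the labels' protocols. The submitters' processing notes name TopHat, DESeq 1.32.0 and hg38, while neither a counting tool nor its use of strand is stated in the sources used here. The deposited values are estimated counts per RefSeq transcript, TPM, which the authors scaled for length and to a fixed total, and FPKM scaled by the authors to length and depth, per the file headers. The authors' 12 columns of group means were used, and 36 single-library columns were not, since their codes match no label. Without single libraries, the edgeR quasi-likelihood test foreseen could not be run.

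Transcripts were summed per NCBI gene ID, of which 17672 of 17818 had a symbol in the RefSeq table of GRCh38.p14. log2((TPM + 1) / (TPM + 1)) was computed for genes at 1 TPM or more in at least 1 group compared. Sizes of 1.5-fold, and of 2-fold between lines, were called by size alone, with no test. Count ratios have Clopper-Pearson intervals on rounded means (scipy 1.17.1). Their computation was checked on simulated single-library counts without replicate spread, which does not test the intervals on these data. PCR copies are not independent molecules, so intervals and the floor of 3 counts cover counting error only. Factors for TMM, RLE and upper-quartile scaling came from edgeR 4.0.16. The members and lists were chosen with earlier results of these data known. Genes beside the members were named by rule: at 5 TPM or more, up to 4 per list with the largest log2 ratio in a comparison, besides partners and neighbours of members; UNG, UCK1, UCK2, CES2 and SLC28A genes illustrate a list or role. The E2F, CCAAT and GC box letters, the transcripts shown and the comparison of lines in USP51 cells were chosen after the values were seen. The values of 1 pathway gene are not reported here.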

Additional observations from a re-analysis of the deposited data

How the results depend on the processing

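Alternatives were pseudocounts of 0.1 and 5, no filter or a filter of 5 TPM, FPKM, CPM without factors or with TMM, RLE or upper-quartile factors, and curated transcripts alone. In all of them no measured member passed 1.5-fold with USP51 in either line, and UPP1 kept its directions, with log2 ratios of 0.33 to 0.41 in SW480 and -0.43 to -0.31 in HCT116. TK1 in HCT116 ranged from 0.10 to 0.15. Signs changed for 7 of the member values, all within 0.10 of 0, namely TYMP in both lines, RRM1 in HCT116, SLC29A1 in SW480, and the response differences of TYMS, TYMP and UMPS. The member median between lines, 0.23 in controls, was 0.00789 in USP51 cells, a comparison chosen after seeing the data. The median of all genes was -0.17 in that comparison. In controls the member median was 0.33 with TMM or RLE factors, against 0.0061 and 0.0077 over all genes. With DPYD entering, the median in controls was 0.02 with no filter, 0.03 in CPM without factors and 0.04 with upper-quartile factors. The share of NM_003364.4 in UPP1 was 70.1% in SW480 controls and 23.8% in HCT116 controls with curated transcripts alone, since the predicted transcripts were dropped. Counts of genes past 1.5-fold varied: 14 to 150 (as reported 65) higher and 21 to 225 (as reported 107) lower in SW480, 57 to 501 (as reported 243) and 8 to 51 (as reported 18) in HCT116, 145 to 672 (as reported 448) and 18 to 97 (as reported 52) for the response difference, and past 2-fold 963 to 2072 (as reported 1741) and 920 to 2332 (as reported 1913) between lines. The share of 1.5-fold calls that were higher in SW480 with USP51 was 37.8% in TPM and between 49.8% and 53.8% over the 4 CPM settings. No paired analysis was possible because only group means were used, and leaving out a replicate and DESeq2 were not run for the same reason.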
